A study of Mus musculus with 18 samples.

Results

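The genes described here code for enzymes that make, convert or inactivate androgens, and they were followed in fetal mouse lung through all probe sets that carry their symbols. The 7 genes chosen were Srd5a1, Hsd17b2, Hsd17b4, Hsd17b10, Hsd17b11, Hsd17b12 and Akr1c14. In the platform annotation used, 6 of the 7 genes had such a probe set, 11 probe sets in all of the 45037 tested. Srd5a1, the steroid 5-alpha-reductase that turns testosterone into dihydrotestosterone, was not analysed here.

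RNA from BALB/c fetal lungs was hybridized to 18 arrays. By the study's account, each held pooled RNA of 3 fetuses that shared their sex and came from different litters. The 6 groups of 3 pools were flutamide-treated males, vehicle-treated males and vehicle-treated females at gestational day 18 (18 flut, 18 m and 18 f), and the same at gestational day 17 (17 flut, 17 m and 17 f). Flutamide, an antiandrogen, or vehicle was injected under the skin of the dam every day from GD10 until the day before harvest, at 1 mg of flutamide a day. By the labels, no flutamide-treated females were among the samples. All values below are log2 of the array signal, differences are log2 values of the group named first minus the other, and a difference was called where the Benjamini-Hochberg adjusted p over all 45037 probe sets, from a limma model of the 6 groups, was under 0.05.

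Testosterone and the more potent dihydrotestosterone are the main active androgens, and tissues set their own exposure by enzymes that convert these steroids. The 17-beta-hydroxysteroid dehydrogenases move hydrogen at a carbon of the steroid that decides between active and weak androgens or estrogens, and several of them have main jobs in lipid metabolism instead. Some aldo-keto reductases of the Akr1c group, Akr1c14 among them, act at another carbon and turn dihydrotestosterone into a weak androgen. The fetal lung is known to metabolize androgens late in gestation, at the time when surfactant production rises.

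The pools carried the genes of lung at a high level, with Sftpc, the surfactant protein C gene, at group means of 13.98 to 14.67. The mean signal of 7 of 7 listed lung epithelial genes was 10.58 to 10.96 in the GD18 pools and 8.16 to 9.35 in the GD17 pools. Several pools stood apart in genes of other tissues. The mean of 9 of 13 listed exocrine pancreas genes was 9.99 to 10.57 in 17 m 3, 17 f 2 and 17 f 3, against 5.59 to 6.12 in every other pool. The mean of 9 of 10 listed liver genes was highest in 18 m 3, at 12.48, and in 18 flut 2, at 11.22, and 18 flut 2 also led in genes of steroid-making cells, at 6.70 against 5.31 to 5.82 elsewhere (8 of 9 listed genes measured). Pool 18 flut 3, labelled male, had the X-inactivation RNA Xist at 11.95, against 8.08 and 8.15 in the other 18 flut pools. Its Y-linked genes were lower than in 18 flut 1 and 18 flut 2 (Eif2s3y 7.21 against 8.04 and 8.16, Kdm5d 7.11 against 8.53 and 8.29, Uty 7.11 against 8.34 and 8.31). Whether this pool held RNA of a female fetus was not tested. Results that rest on the pools that stood apart are also given without them.

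The promoter stretches of the 3 genes that changed between the days in all 3 kinds of fetus are shown because they carry the clearest pattern in these enzymes, which is a change with gestational day. They are the 250 bases before the transcription start in RefSeq on GRCm38.p6, at chr13:4059341-4059590 on the plus strand for Akr1c14, chr5:104021797-104022046 on the minus strand for Hsd17b11 and chr2:94157910-94158159 on the minus strand for Hsd17b12. Capitals mark the CCAAT box (CCAAT or its reverse complement ATTGG) and the GC box (GGGCGG or CCGCCC), and no other searched motif was present.
Akr1c14: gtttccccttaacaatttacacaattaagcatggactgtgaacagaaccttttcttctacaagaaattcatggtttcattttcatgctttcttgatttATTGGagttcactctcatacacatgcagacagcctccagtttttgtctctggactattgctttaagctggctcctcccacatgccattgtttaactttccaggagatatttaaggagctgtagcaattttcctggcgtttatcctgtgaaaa
Hsd17b11: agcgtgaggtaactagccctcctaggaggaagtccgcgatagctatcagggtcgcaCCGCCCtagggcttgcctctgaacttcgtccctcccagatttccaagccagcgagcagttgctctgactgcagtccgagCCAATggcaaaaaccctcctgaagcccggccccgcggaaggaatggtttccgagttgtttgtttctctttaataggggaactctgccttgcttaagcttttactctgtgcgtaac
Hsd17b12: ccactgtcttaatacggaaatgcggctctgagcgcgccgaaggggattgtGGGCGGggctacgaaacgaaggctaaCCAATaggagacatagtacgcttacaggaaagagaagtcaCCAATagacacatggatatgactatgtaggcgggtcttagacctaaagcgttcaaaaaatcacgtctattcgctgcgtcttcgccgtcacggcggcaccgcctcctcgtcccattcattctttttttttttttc
Akr1c14 held 1 CCAAT box, on the reverse strand, and Hsd17b11 and Hsd17b12 each held a GC box beside 1 and 2 CCAAT boxes. Both motifs are common, with a CCAAT box in 33.9% and a GC box in 32.7% of 32841 promoter windows of the same length searched on both strands. The Akr1c14 window had 38.8% G and C and 1 CpG, below the lower quartiles of all windows (45.2% and 2). The Hsd17b11 window had 54.8% and 13 CpG, and the Hsd17b12 window 49.6% and 20 CpG, against medians of 52.4% and 6. The letters TGTTCT, a core of steroid hormone response elements, were in 16.1% of all windows and in none of these 3. The full palindromic element, which contains that core, was in 0.00913% of all windows, TATAAA in 12.4%, the C/EBP palindrome TTGCGCAA in 0.164% and the nuclear factor I palindrome in 0.0365%, and these 3 windows held none of them, which says only that the letters are not in these windows.

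Akr1c14 and Hsd17b11 were higher and Hsd17b12 lower at GD18 than at GD17 in all 3 kinds of fetus, and Akr1c14 had the largest difference. Between GD18 and GD17, 3 of the 11 probe sets were called (2 higher, 1 lower) in flutamide-treated males, where 20.3% of all probe sets were called. In males 5 of 11 were called (3 higher, 2 lower), where 25% of all were. In females 5 of 11 were called (3 higher, 2 lower), where 33.6% of all were. The shares are 3 and 5 of 11 against a background of about the same order, so the counts alone do not set these genes apart from the array. Akr1c14, the leading probe set of Hsd17b11 and the leading probe set of Hsd17b12 were called in all 3, the leading probe set being the one of highest mean signal. Pools of the 2 days did not overlap for 6 of 11 probe sets in flutamide-treated males, against 39.4% of all probe sets. In males this held for 7 of 11, against 33.2%, and in females for 8 of 11, against 48.4%.

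**Figure D1:**
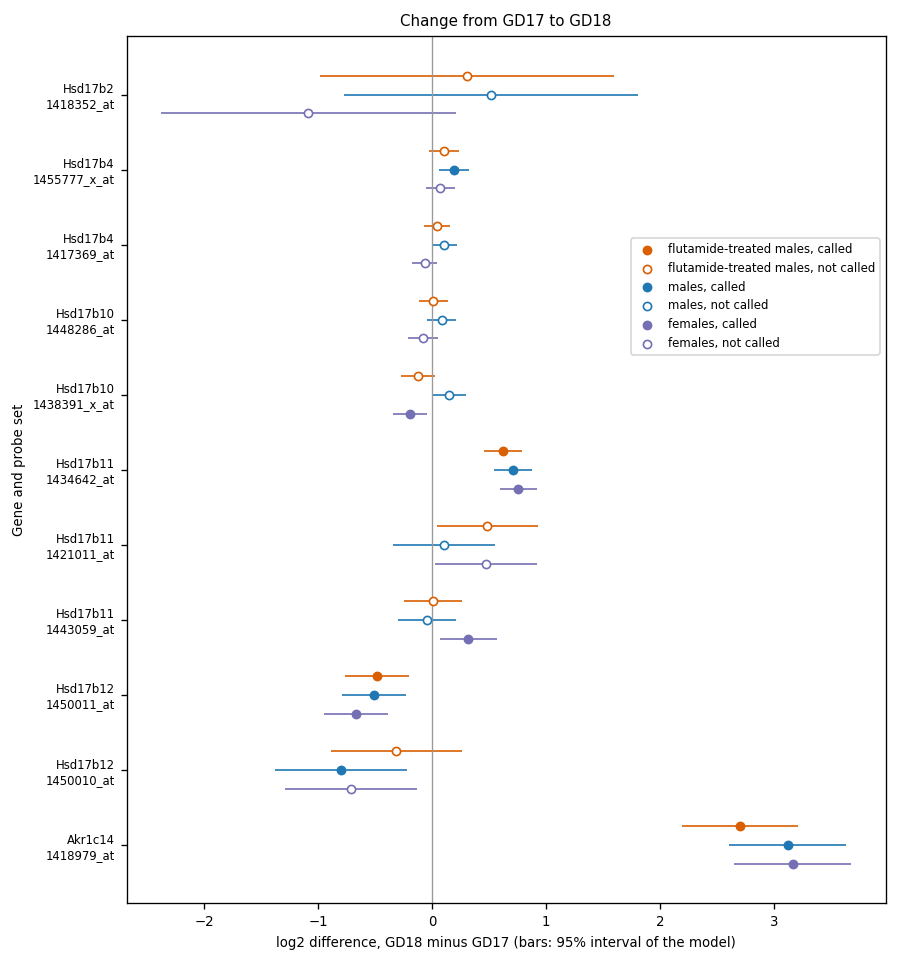
Difference between GD18 and GD17 (log2) for each of the 11 probe sets in flutamide-treated males, males and females, with the 95% interval of the model; filled points were called. Akr1c14 lies at 2.70 to 3.16, Hsd17b11 (1434642_at) at 0.63 to 0.76 and Hsd17b12 (1450011_at) at -0.48 to -0.67, while the interval of Hsd17b2 spans 0 in every group.

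Akr1c14 codes for the mouse 3-alpha-hydroxysteroid dehydrogenase, which reduces dihydrotestosterone to androstanediol. Its 1 probe set was at 9.63, 9.09 and 9.40 in the 18 flut pools, against 6.89, 6.42 and 6.71 in the 17 flut pools. It was at 9.22, 9.26 and 9.20 in the 18 m pools, against 5.37, 6.79 and 6.17 in the 17 m pools. It was at 9.47, 9.27 and 9.11 in the 18 f pools, against 6.05, 6.09 and 6.23 in the 17 f pools. Every GD18 pool was above every GD17 pool, by more than 2 log2 units at the nearest. The GD18 males had a narrow spread (SD 0.03), against a wide one in the GD17 males (SD 0.71), with pool 17 m 1 the lowest of all.

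The GD18 level of Akr1c14 was 6.50-fold that of GD17 under flutamide (difference 2.70, standard error 0.24, adjusted p = 2.9e-06), 8.69-fold in males (3.12, standard error 0.24, adjusted p = 8.24e-07) and 8.95-fold in females (3.16, standard error 0.24, adjusted p = 1.38e-07). Among all 45037 probe sets ordered by their increase, Akr1c14 ranked 16 in flutamide-treated males, 10 in males and 9 in females. The day effect did not differ between kinds of fetus beyond the error. It was smaller under flutamide than in vehicle-treated males (flutamide by day -0.42, 95% interval -1.14 to 0.31, adjusted p = 0.67), where 0 of 11 probe sets were called, 1 had an unadjusted p under 0.05 and 0.364% of all probe sets were called. The day effect in males minus that in females was -0.04 (95% interval -0.77 to 0.68, adjusted p = 0.97).

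The increase of Akr1c14 did not follow the pools that stood apart. Without 17 m 3, 17 f 2 and 17 f 3 it was 3.15 in males and 3.24 in females, with 1 GD17 female pool left and taken to vary like the other groups. Without 18 m 3 and 18 flut 2, the pools highest in liver genes, it was 2.84 in flutamide-treated males and 3.13 in males. The mean of the lung epithelial genes was also higher in all GD18 pools than in all GD17 pools. So was the mean of 4 of 4 listed endothelial genes (9.21 to 9.55, against 8.81 to 9.04). Among the epithelial genes, Nkx2-1 was lower at GD18 than at GD17 in males (group means 6.13 against 6.26). It was higher in flutamide-treated males (6.32 against 6.06) and in females (6.44 against 6.23). The part of these epithelial and endothelial genes in the Akr1c14 values was not tested. In RNA of whole lung, fewer cells of a type and less RNA per cell cannot be told apart.

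In Akr1c14 no difference within a day was called, and the widest was that of flutamide at GD17. The order of group means was 18 flut (9.37), 18 f (9.28), 18 m (9.23), 17 flut (6.67), 17 f (6.12) and 17 m (6.11). The GD18 means, and those of 17 f and 17 m, were closer to their neighbours than the larger SD of each pair, whereas 17 flut lay above 17 f by more than their SDs of 0.24 and 0.09. At GD17 the flutamide-treated males were 0.56 above males (95% interval 0.05 to 1.08, adjusted p = 0.20) and 0.55 above females (adjusted p = 0.18). The 17 flut pools lay above all 17 f pools and overlapped the 17 m pools, of which 17 m 2 was at 6.79. Neither difference was called, but without 17 m 2 the difference from males was 0.90 and passed the threshold (adjusted p = 0.030). At GD17 the flutamide-treated males also had the highest lung epithelial means, 9.13 to 9.35, against 8.16 to 9.02 in males and 8.41 to 8.95 in females, and the part of this in the Akr1c14 values was not tested.

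Of the other aldo-keto reductase genes of the Akr1c group measured, none was called higher at GD18 in any kind of fetus. Akr1c14 lies on chromosome 13 between Ucn3 and Akr1c18, with Akr1c13 beyond. Between GD18 and GD17 in females Akr1c18 (-0.46, adjusted p = 0.0058), Akr1c13 (-1.77, adjusted p = 0.0057) and Akr1c12 (-0.54, adjusted p = 0.045) were lower. In males Akr1c18 (-0.08), Akr1c13 (-0.06) and Akr1c12 (-0.27) were not called, nor were they in flutamide-treated males (0.15, -0.56 and -0.12). Akr1c13 was at 7.49, 7.56 and 7.25 in 17 f 2, 17 f 3 and 17 m 3, the pools high in pancreas genes, and between 4.99 and 6.64 in every other pool. Without these 3 pools the call in females was lost for Akr1c13 (-0.82, adjusted p = 0.21) and Akr1c12 (-0.16, adjusted p = 0.64) and stayed for Akr1c18 (-0.59, adjusted p = 0.026). Likeness within both days was the lower of the 2 Pearson correlations over the 9 pools of each day. It was taken over 19595 probe sets of other genes with 1 symbol and a mean signal from the array median up. The genes most like Akr1c14 were Tsc22d3 (0.89 at GD17 and 0.84 at GD18), Fmo2 (0.81 and 0.92) and Hp (0.82 and 0.81). Tsc22d3 codes for the leucine zipper protein known for its induction by glucocorticoids, Fmo2 for the flavin monooxygenase of lung, and Hp for haptoglobin. The pools of a day share the RMA scaling and fall into 3 groups, so these values describe likeness only.

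**Figure D2:**
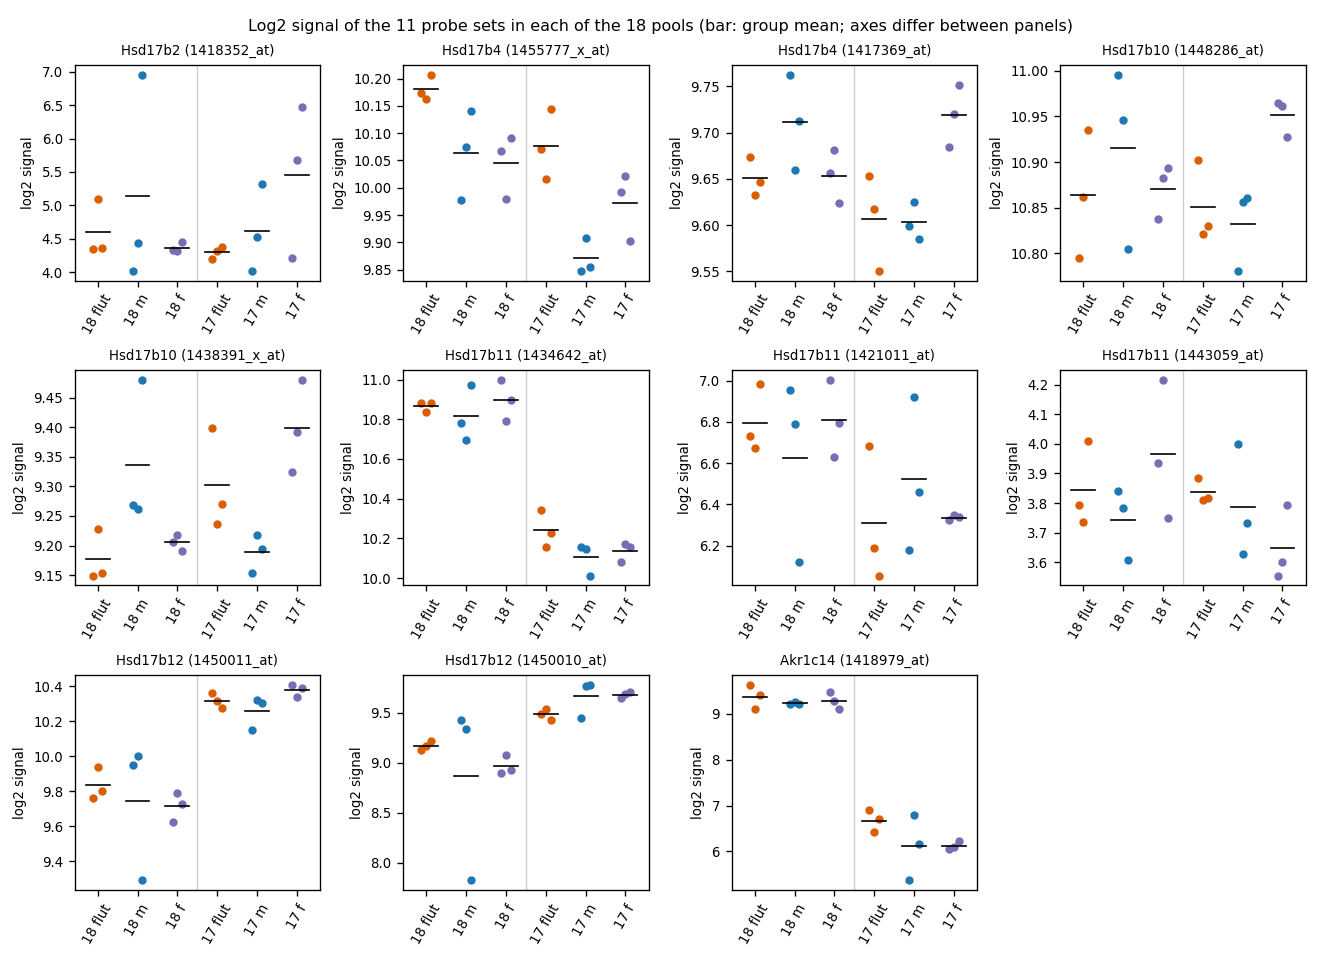
Log2 signal of each of the 11 probe sets in the 18 pools, with groups on the horizontal axis (flutamide-treated males, males and females at GD18, then the same at GD17), 1 point per pool and a bar at the group mean; vertical axes differ between panels. The Akr1c14 pools lie at 9.09 to 9.63 at GD18 and 5.37 to 6.89 at GD17, and the highest Hsd17b2 value, 6.95, is a single 18 m pool.

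Hsd17b11 codes for a dehydrogenase of lipid droplets which, in human, converts androstanediol to androsterone. Its leading probe set (1434642_at) was at 10.88, 10.84 and 10.88 in the 18 flut pools, against 10.34, 10.16 and 10.22 in the 17 flut pools. It was at 10.78, 10.70 and 10.97 in the 18 m pools, against 10.15, 10.15 and 10.01 in the 17 m pools. It was at 10.999, 10.79 and 10.89 in the 18 f pools, against 10.08, 10.17 and 10.16 in the 17 f pools. Every GD18 pool was above every GD17 pool, and the groups of a day lay within 0.14 of each other.

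The increase in Hsd17b11 was 1.54-fold under flutamide (0.63, standard error 0.08, adjusted p = 3.38e-05), 1.64-fold in males (0.71, standard error 0.08, adjusted p = 1.05e-05) and 1.69-fold in females (0.76, standard error 0.08, adjusted p = 1.63e-06). In males it was larger in size than the difference of 95.1% of all probe sets. The day effect under flutamide minus that in males was -0.09 (95% interval -0.32 to 0.15), and that in males minus that in females was -0.05 (95% interval -0.28 to 0.19), and neither difference was called (adjusted p = 0.81 and 0.88). With any of the 16 alternative fits, pools left out included, the increase stayed called in each kind of fetus.

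The other probe sets of Hsd17b11 did not share this pattern clearly. Probe set 1421011_at was higher at GD18 by 0.49 in flutamide-treated males (adjusted p = 0.13), 0.10 in males (adjusted p = 0.79) and 0.47 in females (adjusted p = 0.099), none called, with 18 m 3 at 6.12 below the other 18 m pools at 6.96 and 6.79. Probe set 1443059_at, a dim one at a mean of 3.80, was called in females alone (0.32, adjusted p = 0.0496), and its female pools overlapped between the days, at 3.93, 4.22 and 3.75 at GD18 against 3.55, 3.60 and 3.79 at GD17. That call was lost with any of 4 pools left out in turn (17 f 1, 17 f 2, 18 f 1 and 18 f 2), at adjusted p of 0.087 to 0.25. Over the 9 pools of a day the 3 probe sets correlated weakly, between -0.31 and 0.44. Hsd17b13, the neighbour of Hsd17b11 on chromosome 5 and a lipid droplet protein of liver, was near 5 in every group and was not called between the days.

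Hsd17b12 codes for the ketoacyl reductase of the endoplasmic reticulum that takes part in the elongation of very long fatty acids, and it was lower at GD18. Its leading probe set (1450011_at) was at 9.76, 9.94 and 9.80 in the 18 flut pools, against 10.36, 10.32 and 10.28 in the 17 flut pools. It was at 9.95, 9.999 and 9.29 in the 18 m pools, against 10.15, 10.32 and 10.30 in the 17 m pools. It was at 9.62, 9.79 and 9.72 in the 18 f pools, against 10.41, 10.34 and 10.39 in the 17 f pools. The days did not overlap in any kind of fetus, and the lowest value was that of 18 m 3.

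The difference between the days was -0.48 under flutamide (fold change 0.715, standard error 0.13, adjusted p = 0.015), -0.51 in males (fold change 0.702, standard error 0.13, adjusted p = 0.0090) and -0.67 in females (fold change 0.631, standard error 0.13, adjusted p = 7.73e-04). Without 18 m 3 and 18 flut 2 the difference in males was -0.28 and still called (adjusted p = 0.0092), and without 17 m 3, 17 f 2 and 17 f 3 it was -0.49 in males (adjusted p = 0.051) and -0.70 in females (adjusted p = 0.029). In flutamide-treated males the call was lost without 17 flut 1, 18 flut 1 or 18 flut 3 (adjusted p 0.051 to 0.057).

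The other probe set of Hsd17b12, 1450010_at, was at 9.12, 9.16 and 9.22 in the 18 flut pools, against 9.48, 9.54 and 9.43 in the 17 flut pools. It was at 9.43, 9.34 and 7.82 in the 18 m pools, against 9.44, 9.77 and 9.78 in the 17 m pools, and at 8.90, 9.08 and 8.93 in the 18 f pools, against 9.65, 9.69 and 9.70 in the 17 f pools. The days did not overlap in any kind of fetus, which in flutamide-treated males held for 39.4% of all probe sets. Pool 18 m 3 was the lowest of all pools by more than 1 log2 unit. The difference between the days was -0.31 in flutamide-treated males (adjusted p = 0.51), -0.80 in males (adjusted p = 0.041) and -0.71 in females (adjusted p = 0.054), called in males only. Without 18 m 3 and 18 flut 2 the differences were -0.31 (adjusted p = 0.024), -0.28 (adjusted p = 0.045) and -0.71 (adjusted p = 7.14e-06), all called. Within GD18 the probe sets of Hsd17b12 moved together over the 9 pools (correlation 0.95), and at GD17 less so (0.48).

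Pool 18 m 3 also decided the sex comparison of Hsd17b12 at GD18. With all pools, 1450010_at was lower in males than in females (-0.10, 95% interval -0.68 to 0.47, adjusted p = 0.92). Without 18 m 3 it was 0.42 higher in males (adjusted p = 0.015), and the leading probe set was 0.26 higher (adjusted p = 0.047), against 0.03 with all pools. The difference between the sexes in their day effect turned in the same way, to 0.43 for 1450010_at (adjusted p = 0.034) and 0.38 for 1450011_at (adjusted p = 0.022) without 18 m 3, against -0.09 and 0.15 with all pools. Pool 18 m 3 was the one with liver genes at a mean of 12.48, against 9.16 and 8.63 in 18 m 1 and 18 m 2, and the part of this in its Hsd17b12 values was not tested.

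Hsd17b4 codes for the peroxisomal multifunctional enzyme of fatty acid beta-oxidation, which also oxidizes estradiol. Its leading probe set (1455777_x_at, whose suffix marks probes that may match other transcripts) was at 10.17, 10.16 and 10.21 in the 18 flut pools, against 10.07, 10.02 and 10.14 in the 17 flut pools. It was at 9.98, 10.07 and 10.14 in the 18 m pools, against 9.85, 9.91 and 9.85 in the 17 m pools, and at 10.07, 9.98 and 10.09 in the 18 f pools, against 9.99, 10.02 and 9.90 in the 17 f pools. All pools lay within 0.36 of each other, and the highest were those of 18 flut.

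The GD18 level of this probe set was 0.19 higher in males (1.14-fold, standard error 0.06, adjusted p = 0.028), and its differences in flutamide-treated males (0.10) and females (0.07) were not called. The call in males was lost with any of 17 m 1, 17 m 3, 18 m 2 or 18 m 3 left out (adjusted p 0.064 to 0.10). At GD17 flutamide-treated males were 0.21 above males (1.15-fold, 95% interval 0.08 to 0.34, adjusted p = 0.072) with no overlap of pools, which missed the threshold, and at GD18 they were 0.12 above (95% interval -0.01 to 0.25, adjusted p = 0.34), also with no overlap. The other probe set, 1417369_at, did not share this, at a difference of 0.00 at GD17 and -0.06 at GD18. Over the 9 pools of a day it did not follow the leading one (correlations -0.10 at GD17 and -0.51 at GD18).

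Hsd17b10, on the X chromosome between Huwe1 and Ribc1, codes for a mitochondrial enzyme of isoleucine breakdown that is also a subunit of the ribonuclease that cuts mitochondrial tRNA precursors, and that oxidizes androstanediol. Its leading probe set (1448286_at) varied least among the leading probe sets, from 10.78 to 10.995 over the 18 pools, and was called in no comparison. Its other probe set, 1438391_x_at, has the suffix that marks probes that may match other transcripts. It was at 9.27, 9.26 and 9.48 in the 18 m pools, against 9.21, 9.22 and 9.19 in the 18 f pools. At GD17 it was at 9.15, 9.22 and 9.19 in the 17 m pools, against 9.32, 9.39 and 9.48 in the 17 f pools. Males were thus above females at GD18 and below them at GD17, with no overlap of pools on either day. Pools of the sexes did not overlap for 16.5% of all probe sets at GD18 and 22.7% at GD17.

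In females 1438391_x_at was lower at GD18 than at GD17 (-0.19, fold change 0.874, standard error 0.07, adjusted p = 0.040). The call in females stayed in 8 of 16 alternative fits. It was lost without 17 f 2, 17 f 3 or any single 18 f pool (adjusted p 0.072 to 0.16). Without 17 m 3, 17 f 2 and 17 f 3, with 1 GD17 female pool left, the difference in females was -0.12. In males the probe set was 0.15 higher at GD18 (adjusted p = 0.14) and in flutamide-treated males lower (-0.12, adjusted p = 0.25). The day effects of the sexes differed by 0.34 (standard error 0.10, adjusted p = 0.047), the 1 call among the 11 probe sets for sex by day, where 6.54% of all probe sets were called. In males minus females the difference was 0.13 at GD18 (adjusted p = 0.42) and -0.21 at GD17 (adjusted p = 0.11), neither called. The call for sex by day was lost without 17 m 3, 17 f 2 and 17 f 3 (0.27, adjusted p = 0.39) and without 18 m 3 (0.27, adjusted p = 0.063), and with each of 8 other pools left out in turn (adjusted p 0.067 to 0.13). The leading probe set differed by 0.16 in the same direction and was not called (adjusted p = 0.31). The probe sets correlated at 0.78 over the GD17 pools and at -0.18 over those of GD18.

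Hsd17b2 codes for the dehydrogenase that oxidizes testosterone and estradiol to weaker steroids, and its values followed single pools rather than groups. Its probe set, dim in most pools, was at 4.35, 5.09 and 4.37 in the 18 flut pools, 4.02, 4.44 and 6.95 in the 18 m pools, and 4.33, 4.32 and 4.46 in the 18 f pools. At GD17 it was at 4.20, 4.31 and 4.38 in the 17 flut pools, 4.02, 4.53 and 5.32 in the 17 m pools, and 4.21, 5.69 and 6.47 in the 17 f pools. The 5 values above 5 were those of 18 flut 2, 18 m 3, 17 m 3, 17 f 2 and 17 f 3, and every other pool lay between 4.02 and 4.53.

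These 5 pools were also the 5 with the highest mean signal of liver genes, 10.76 to 12.48, against 6.80 to 9.44 in the other 13. Of the 5, 3 were high in exocrine pancreas genes too. The genes most like Hsd17b2 within both days were Rrbp1, a ribosome-binding protein of the secretory pathway (correlations 0.95 at GD17 and 0.98 at GD18 over 9 pools each), Reln, the secreted protein reelin (0.94 and 0.98), and Cbs, an enzyme of transsulfuration abundant in liver (0.93 and 0.97). The part of liver or pancreas RNA in the Hsd17b2 values was not tested. Hsd17b2 was called in none of the 11 comparisons, with standard errors of 0.61 for a difference between groups, and the largest between a pair of groups, -1.16 for 17 flut minus 17 f, had an adjusted p of 0.26. The difference in females between GD18 and GD17 was -1.08 (adjusted p = 0.20). It became 0.16 without 17 m 3, 17 f 2 and 17 f 3, and it was called without 17 f 1 (-1.71, adjusted p = 0.042) and without 18 m 3 and 18 flut 2 (adjusted p = 0.048).

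**Figure D3:**
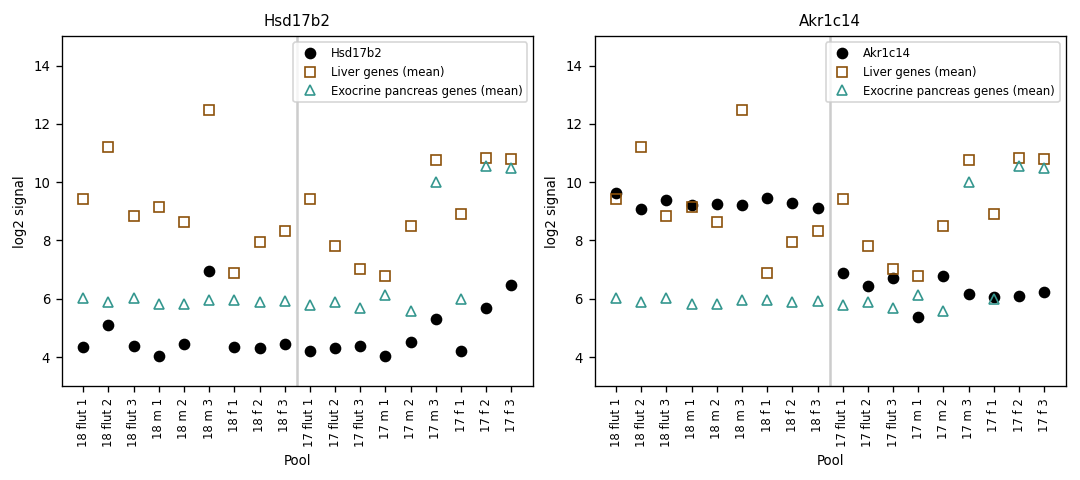
Log2 signal of Hsd17b2 (left) and Akr1c14 (right) in each of the 18 pools as filled points, beside the mean log2 signal of 9 liver genes (squares) and 9 exocrine pancreas genes (triangles). The Hsd17b2 values above 5 fall on the 5 pools with the highest liver means, while Akr1c14 separates the GD18 pools from the GD17 pools and was at 9.20 in 18 m 3, where the liver mean was 12.48.

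With all pools, neither flutamide nor sex moved any of the 11 probe sets past the threshold on either day. The design puts this question through the male groups with and without the antiandrogen and through the sexes. The study, however, lists Hsd17b12 at GD17 as modulated by both, highest in males and lowest in females, and names no probe set for it. Here males minus females at GD17 was -0.12 for 1450011_at and -0.02 for 1450010_at (adjusted p = 0.72 and 0.99 in the limma model). Flutamide-treated males minus males was 0.06 and -0.18 (adjusted p = 0.83 and 0.74). Over the array 1845 probe sets were called for sex and 1600 for flutamide at GD17, close to the study's counts of genes. Probe sets with no symbol or several were not taken as Hsd17b12. Whether the study's entry rests on such a probe set was not tested. Between flutamide-treated males and males, 0 of 11 probe sets were called at GD17 by limma (2 at an unadjusted p under 0.05), where 3.55% of all were called, and 0 of 11 at GD18 (1 at an unadjusted p under 0.05), where 3.95% of all were. For males against females, 0 of 11 were called at GD17 (2 at an unadjusted p under 0.05), where 4.1% of all were, and 0 of 11 at GD18 (0 at an unadjusted p under 0.05), where 1.85% of all were. Between flutamide-treated males and females, whose pools also serve in the comparisons above, 0 of 11 were called at GD17 (2 unadjusted), where 4.39% of all were, and 0 of 11 at GD18 (1 unadjusted), where 0.278% of all were. With 11 probe sets and shares of 0.278% to 4.39% over the array, counts of 0 do not set these genes apart.

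The intervals show how large a difference could have gone uncalled. For Akr1c14 at GD18 flutamide-treated males were 0.15 above males (95% interval -0.37 to 0.66), and males were below females (-0.05, 95% interval -0.57 to 0.46). For the leading probe set of Hsd17b11 at GD18 these values were 0.05 (95% interval -0.12 to 0.22) and -0.08 (95% interval -0.24 to 0.09). Pools of the groups did not overlap for 3 of 11 probe sets between flutamide-treated males and males at GD17, against 28.5% of all probe sets, and for 4 of 11 between males and females at GD17, against 22.7%. At GD18 the counts were 2 of 11 for flutamide, against 19.4%, and 1 of 11 for sex, against 16.5%. These shares are near those of the whole array. Without 18 flut 3, the pool with Xist near the level of females, the count called for flutamide at GD18 was also 0. However, 2 probe sets, both of Hsd17b12, were called for sex at GD18 without 18 m 3, and without 17 m 2 the 1 of Akr1c14 was called for flutamide at GD17.

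**Figure D4:**
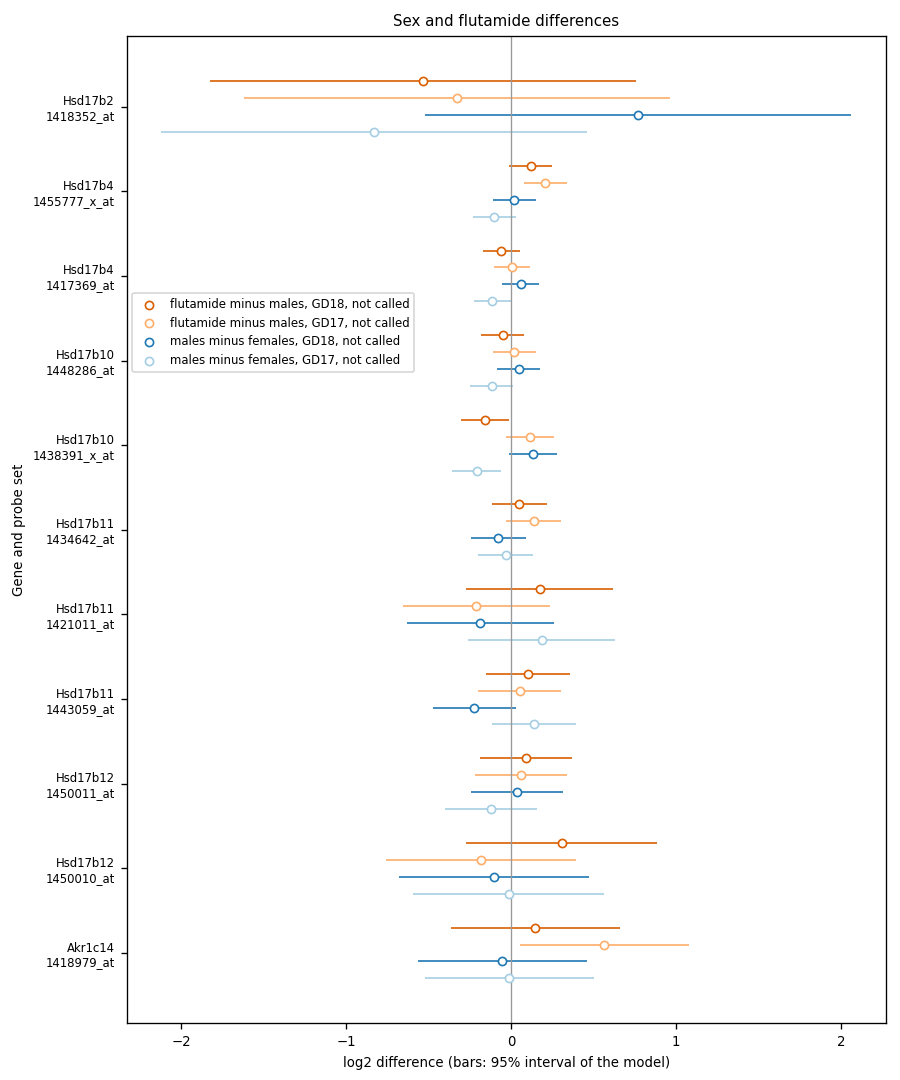
Differences between flutamide-treated males and males and between males and females on each day (log2, with the 95% interval of the model) for the 11 probe sets; open points were not called, and none was called. The widest intervals are those of Hsd17b2, and the Hsd17b4 probe set 1455777_x_at at GD17 (0.21) and the Akr1c14 value at GD17 (0.56) are the flutamide differences whose intervals leave out 0 on the higher side.

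The other genes of the same pathways were also called more often by day than by sex or flutamide. Of 35 measured genes of steroid synthesis and androgen metabolism (46 listed, the genes above left out), 0 were called for flutamide or for sex on either day by limma, with 4 and 1 at an unadjusted p under 0.05 for flutamide at GD17 and GD18, and 5 and 2 for sex. Between GD18 and GD17, 4 rose and 1 fell in flutamide-treated males, 4 rose and 0 fell in males, and 2 rose and 8 fell in females, which is 14.3%, 11.4% and 28.6% of the list against the 20.3%, 25% and 33.6% given for the array. Stard3, a carrier of cholesterol to membranes, rose in all 3 (0.35 in flutamide-treated males, 0.55 in males and 0.39 in females), as did Fdx1, the ferredoxin that feeds electrons to steroid hydroxylases (0.39, 0.54 and 0.30). Hsd17b7, an enzyme of cholesterol synthesis, fell in flutamide-treated males (-0.41, adjusted p = 0.0078) and in females (-0.63, adjusted p = 1.0e-04). Without 17 m 3, 17 f 2 and 17 f 3, only 2 of the list fell in females, against 8 with all pools, and 1 was called higher in males than in females at GD18. Ugt2b34, a glucuronosyltransferase and 1 of the 8, was at 8.50, 8.45 and 7.97 in 17 f 2, 17 f 3 and 17 m 3 and at 8.12 in 18 m 3, against 5.01 to 6.003 in the other pools.

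Genes of the lipid droplet, where Hsd17b11 resides, were called higher more often than lower with day. Of 22 measured (23 listed), 11 rose in flutamide-treated males, 14 in males and 11 in females, and 0, 0 and 1 fell, with medians of 0.34, 0.34 and 0.30 against -0.01, 0.01 and 0.02 for all probe sets. The shares called were 50%, 63.6% and 54.5%, against the 20.3%, 25% and 33.6% of the array. The list holds only the brightest probe set of each gene and the array all probe sets, so the gap is not like for like. Mettl7a1, a lipid droplet protein, rose by 1.23 in flutamide-treated males, 1.39 in males and 1.56 in females, and Plin3, a perilipin coat protein, by 0.41, 0.35 and 0.51. Without 17 m 3, 17 f 2 and 17 f 3 the counts that rose were 11, 10 and 7. For flutamide and for sex 0 of the 22 were called on either day (5 and 1 at an unadjusted p under 0.05 for flutamide at GD17 and GD18, 3 and 1 for sex). With 18 m 3 and 18 flut 2 left out, 4 were called higher for flutamide at GD17, and 2 lower in males than in females on each day.

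Genes of fatty acid elongation, the pathway of Hsd17b12, went both ways. Of 13 measured (17 listed), 4 rose and 2 fell with day in flutamide-treated males, 3 rose and 3 fell in males, and 2 rose and 4 fell in females (2 and 2 without 17 m 3, 17 f 2 and 17 f 3), which is 46.2% of the list in each, with all pools. The array shares were 20.3%, 25% and 33.6%, but the list holds only the brightest probe set of each gene. The gap is therefore not like for like. Elovl6, the elongase of saturated fatty acids, fell in all 3 kinds of fetus (-0.72 in flutamide-treated males, -0.45 in males and -1.22 in females). Elovl5, an elongase of polyunsaturated fatty acids, rose by 0.34, 0.46 and 0.57. Elovl6 was also called at GD18 for flutamide (-0.53, adjusted p = 0.030) and for sex (males above females by 0.58, adjusted p = 0.035), with 7.17, 7.40 and 7.17 in the 18 flut pools, 7.61, 7.64 and 8.10 in the 18 m pools, and 7.10, 7.43 and 7.09 in the 18 f pools, so that every male pool was above the pools of both other groups, which share those males as their comparison. Both calls were lost without 18 m 3 and 18 flut 3 (-0.34, adjusted p = 0.16 for flutamide, and 0.42, adjusted p = 0.053 for sex) and without 17 m 3, 17 f 2 and 17 f 3 (-0.53, adjusted p = 0.053, and 0.58, adjusted p = 0.064), and both stayed without 18 m 3 and 18 flut 2 (adjusted p = 0.046 and 0.039).

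Of 21 peroxisomal beta-oxidation genes measured (24 listed), the pathway of Hsd17b4, 6 rose and 0 fell in flutamide-treated males, 6 and 0 in males, and 3 and 4 in females (2 and 1 without 17 m 3, 17 f 2 and 17 f 3). Their shares of 28.6%, 28.6% and 33.3% were near those of the array, which also count dim probe sets. Abcd3, a peroxisomal fatty acid transporter, rose in all 3, by 0.29 in flutamide-treated males, 0.46 in males and 0.50 in females. Of 14 genes of mitochondrial tRNA processing and isoleucine breakdown (16 listed), the pathways of Hsd17b10, 1 rose and 2 fell in flutamide-treated males, 3 and 2 in males, and 1 and 6 in females (0 and 4 without 17 m 3, 17 f 2 and 17 f 3), which is 21.4%, 35.7% and 50% of the list. The array shares were 20.3%, 25% and 33.6%, again not like for like with the brightest probe set of each gene. Bckdhb, a subunit of the branched-chain ketoacid dehydrogenase, fell in all 3 kinds of fetus (-0.40, -0.50 and -0.76). Trmt10c, a partner of the Hsd17b10 protein in the mitochondrial ribonuclease, was lower under flutamide than in vehicle-treated males at GD18 (-0.58, adjusted p = 9.6e-04), at 7.46, 7.64 and 7.48 in the 18 flut pools, against 8.08, 8.14 and 8.12 in the 18 m pools, and with all pools it was the 1 gene of this list called for flutamide. It stayed called without 17 m 3, 17 f 2 and 17 f 3, without 18 m 3 and 18 flut 3, and without 18 m 3 and 18 flut 2 (adjusted p 0.0031 to 0.014).

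Of 25 genes known to respond to androgens in other tissues (28 listed), 0 were called for flutamide or for sex on either day (3 at an unadjusted p under 0.05 in each of the 4 comparisons). With day 10 rose and 1 fell in flutamide-treated males, 11 and 2 in males, and 12 and 4 in females. This is 44%, 52% and 64% of the list, at the brightest probe set of each gene, against 20.3%, 25% and 33.6% of all probe sets, which is not like for like. Steap4, a metalloreductase, rose by 1.65 in flutamide-treated males, 1.49 in males and 1.99 in females, and Tmprss2, a serine protease of epithelia, by 0.85, 0.90 and 0.86. Without 17 m 3, 17 f 2 and 17 f 3 the counts that rose were 9, 13 and 10, and those that fell 2, 0 and 1. When 18 m 3 and 18 flut 2 were left out, 1 was called higher for flutamide at GD17 and 3 lower in males than in females at GD18. The mean of the lung epithelial genes was higher at GD18 in every group as given above, and its part in these counts was not tested.

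**Figure D5:**
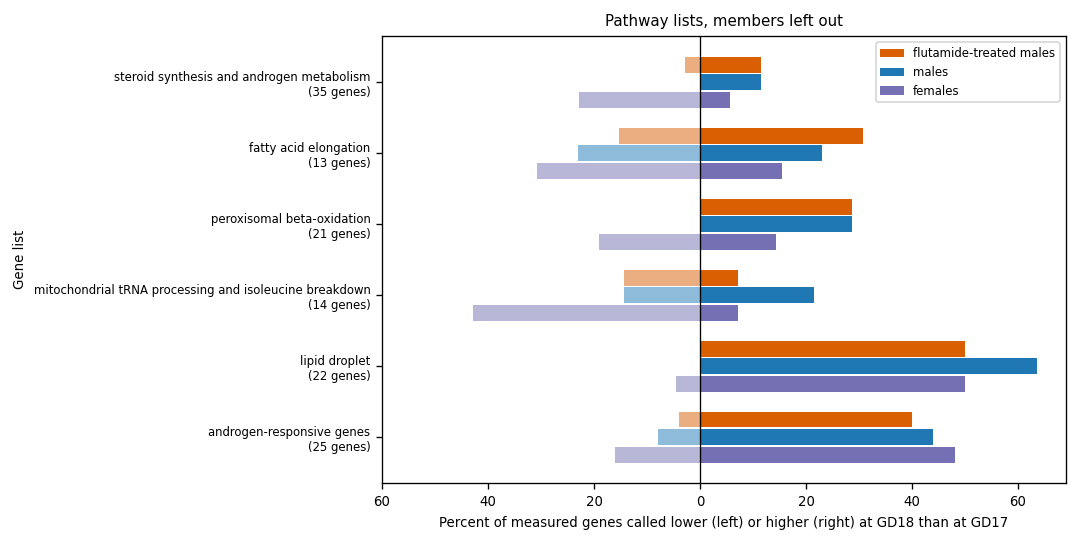
Percent of the measured genes of 6 pathway lists called higher (right) or lower (left, paler) at GD18 than at GD17, with bars for flutamide-treated males, males and females. With all pools, the lipid droplet list has the largest share of calls in males, 63.6%, and the steroid list the smallest there, 11.4%.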

How the data were processed

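Lung RNA of 18 pools (6 groups of 3) was hybridized to Affymetrix MOE430 2.0 arrays. The authors extracted the images with GCOS and summarized probe sets by RMA, and the deposited values are intensities on a linear scale, so their log2 was taken here although log2 values had been assumed. Processing notes of the submitters give limma, with no version. Of 45101 probe sets, 64 AFFX controls were left out. An annotation of 2016 gave 1 symbol to 34945 probe sets, several to 932 and none to 9160.

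A limma 3.58.1 model in R 4.3.3 (statmod 1.5.0 for blocks) with a mean for each group and 12 residual degrees of freedom was fitted to all pools, with eBayes moderation and Benjamini-Hochberg adjustment within each of 11 comparisons. Each pool holds other fetuses, so p-values measure the spread between pools. The members, lists and tests were chosen with earlier results of these data known. All probe sets with a member as their only symbol are given. List genes are represented by their probe set of highest mean, and up to 3 called genes of smallest p per list and comparison may be named. Elovl5, Bckdhb, Abcd3, Akr1c12, Akr1c13, Akr1c18, Hsd17b7, Ugt2b34, Hsd17b13 and others beyond that were named after their values were seen. The number of arrays limits precision. Whether the replicate numbers of the labels pair pools could not be settled. Deviations from group means correlated over 0.1 in 12 of 45 same-numbered pairs and in 20 of 90 other pairs. The highest correlation, 0.44, was between 17 f 2 and 17 m 3, both high in pancreas genes, so shared litters or batches cannot be told from these values. Alternatives covered the threshold, normalization, a filter on dim probe sets, weighting of arrays, the prior on variances, which groups were fitted, a replicate block and pools left out. The list values without doubted pools were added after seeing the data.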

Additional observations from a re-analysis of the deposited data

Results flagged for a closer look

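The day effect of the Hsd17b10 probe set 1438391_x_at differed between the sexes by 0.34 (GD18 minus GD17 in males, less the same in females; standard error 0.10, adjusted p = 0.047 in the limma model), with males above females in all pools of GD18 and below them in all pools of GD17. It drew attention because the difference between the effects was itself tested and called. The call stayed in 7 of 22 alternative fits apart from thresholds. It was lost in limma with a replicate block (adjusted p = 0.068) and after a further quantile normalization (adjusted p = 0.10). The leading probe set was not called (0.16, adjusted p = 0.31), nor was the sex difference on either day. The suffix of 1438391_x_at marks probes that may match other transcripts. Pools of the sexes did not overlap for 16.5% of all probe sets at GD18 and 22.7% at GD17.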

How the results depend on the processing

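The GD18 increases of Akr1c14 and of Hsd17b11 (1434642_at) stayed called in all 3 kinds of fetus under each of 16 alternative fits apart from thresholds, as did the decrease of Hsd17b12 (1450011_at) in females. Over single probe sets and comparisons, 2176 values kept direction and side of the threshold under an alternative, 58 lost the call, 48 gained it and 6 turned round. The cause of a change was not tested unless stated.

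The count of called probe sets of these genes (main values 5 for males and 5 for females between the days, 1 for sex by day, 0 elsewhere but in flutamide-treated males) moved as follows. At an unadjusted p under 0.05 it was 2 for males with females and 2 for flutamide-treated males with males at GD17, 1 for flutamide-treated males with males at GD18, 2 and 1 for flutamide-treated males with females at GD17 and GD18, 3 for sex by day and 1 for flutamide by day. At an adjusted p under 0.01 it was 3 between the days in males and 3 in females, and 0 for sex by day. Array weights gave 1 for males with females, 1 for flutamide-treated males with males and 1 for flutamide-treated males with females at GD17, and 8 between the days in females. A further quantile normalization gave 1 for flutamide-treated males with males at GD17, 3 between the days in females and 0 for sex by day, and a filter that kept the brighter probe sets (mean from the median up) gave 1 for the first of these. With only the groups compared it was 2 between the days in males, 1 for flutamide-treated males with females at GD17 and 0 for sex by day.

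The replicate block gave 3 between the days in females and 0 for sex by day, and changed no other count by over 1.5 times. Whether the numbers pair the pools was not settled, so these losses remain a limit. Without 17 m 3, 17 f 2 and 17 f 3 the count was 2 between the days in males, 3 in females and 0 for sex by day. Without 18 m 3 and 18 flut 3 it was 1 for males with females at GD18, 1 for flutamide-treated males with males at GD17 and 2 for sex by day. Without 18 m 3 and 18 flut 2, chosen after seeing the data, it was 1 for males with females at GD17 and 2 at GD18, 1 for flutamide-treated males with males at GD17, 8 between the days in females and 2 for sex by day. With each pool left out in turn it ranged over 3 to 5 between the days in males and in females and 2 to 3 in flutamide-treated males. It ranged over 0 to 1 for flutamide-treated males with males at GD17, 0 to 2 for males with females at GD18 and 0 to 2 for sex by day. It stayed 0 in the rest. The counts over all probe sets moved too with each pool left out. They ranged over 12467 to 14193 between the days in females and 8919 to 11777 in males. For males with females at GD18 they ranged over 187 to 2970. The counts of these genes under the other settings stand here without such totals. They do not set these genes apart from the array.

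Hsd17b12 (1450010_at) turned round between males and females at GD18, to 0.42 without 18 m 3 alone, with 18 flut 2 or with 18 flut 3 (adjusted p 0.015, 0.018 and 0.020), against -0.10 with all pools, and for sex by day to 0.43 (adjusted p 0.034, 0.041 and 0.042), against -0.09. With 1 pool left out at a time these values ranged from -0.39 to 0.42 and from -0.37 to 0.43.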
